A study of Mus musculus with 6 samples.

Results

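The genes described here are 46 lysosomal genes and regulators. They hold 11 hydrolases of glycans and glycosaminoglycans, 9 hydrolases and cofactors of lipid breakdown, 11 cathepsins and other peptidases and 8 membrane proteins. The rest are 4 proton pump subunits and 3 MiT transcription factors, Tfeb, Tfe3 and Mitf. All 46 genes were chosen by gene symbol and found, each on 1 row, among the 54532 genes of the table. RNA from mouse samples labelled lung was sequenced in 6 libraries. The young group holds 3 libraries from mice aged 3 months and the aged group 3 libraries from mice aged 18 months. The design sets these 2 ages side by side. The sources used here do not give strain, sex, genotype or any treatment. They also do not say whether each library came from its own mouse, so the p-values rest on a spread between libraries that may be only technical.

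Lysosomes are acidic organelles in which hydrolases break down proteins, glycans, lipids and nucleic acids delivered by endocytosis and autophagy. The vacuolar proton pump acidifies the lumen, and many of the soluble hydrolases are brought there through mannose 6-phosphate tags. The MiT factors are basic helix-loop-helix proteins that enter the nucleus when nutrient signalling through mTORC1 at the lysosome is low, and bind E-box elements near lysosomal genes, the CLEAR network. In lung, lysosomes are prominent in alveolar macrophages, and the lamellar bodies of alveolar type 2 cells are related organelles.

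The E-box letters CACGTG were searched on both strands of RefSeq promoter windows (build GRCm38.p6, from 250 bases before to 50 bases after a gene start). Of the 46 genes, 40 had a window. CACGTG was present in 15 of these 40 genes (37.5%), against 8.09% of all 27025 genes with a window. Its extended form TCACGTG, which overlaps it, was present in 13 of the 40 (32.5%), against 4.29% of all genes with a window. The 27025 genes also include genes not tested for a difference below. Among tested genes with a window, 1159 held CACGTG and 8669 did not. The extended form was held by 694 of them and not by 9134. The following stretches are shown because they hold these letters in 4 of the 10 genes with the largest rises (Lamp1, Ctsd, Sgsh, Gla), in pump, channel and peptidase genes, and in Glb1 and Naglu, which did not rise. They run 5′ to 3′ on the strand of the gene, with the E-box in capitals.
Lamp1: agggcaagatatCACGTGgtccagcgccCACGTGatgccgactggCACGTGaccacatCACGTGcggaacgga
Ctsd: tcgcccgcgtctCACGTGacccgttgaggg
Gla: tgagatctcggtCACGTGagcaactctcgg
Sgsh: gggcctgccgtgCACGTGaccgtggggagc
Mcoln1: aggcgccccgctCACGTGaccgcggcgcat
Atp6v0d1: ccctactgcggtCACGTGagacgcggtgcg
Atp6v1a: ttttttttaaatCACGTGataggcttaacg
Ctsa: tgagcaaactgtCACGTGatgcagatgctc
Glb1: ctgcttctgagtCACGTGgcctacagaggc
Naglu: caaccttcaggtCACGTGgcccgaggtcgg
The Lamp1 stretch is chr8:13159088-13159160 on the plus strand, where GENCODE vM21 annotates no gene, and it holds 4 E-boxes in its 73 bases up to the gene start. The Ctsd stretch (chr7:142387908-142387937, minus strand) has its box 98 bases before the RefSeq start, in a Ctsd exon outside the coding part. The Gla stretch (chrX:134601182-134601211, minus strand) lies in a non-coding part of an exon of the neighbouring gene Hnrnph2. The Sgsh stretch (chr11:119355522-119355551, minus strand), the Mcoln1 stretch (chr8:3500462-3500491, plus strand), the Ctsa stretch (chr2:164833749-164833778, plus strand) and the Naglu stretch (chr11:101070009-101070038, plus strand) have their box in a non-coding part of an exon of the gene itself. The Atp6v1a stretch (chr16:44139373-44139402, minus strand) has its box in an annotated intron of that gene. The Atp6v0d1 stretch (chr8:105566050-105566079, minus strand) and the Glb1 stretch (chr9:114401018-114401047, plus strand) have theirs where no gene is annotated. Over the 15 genes there were 23 boxes, of which 22 began before the RefSeq start, 15 began within 100 bases of it and 21 had the extended form. The other genes with a box were Arsa, Cln3, Ctsf, Ctsl and Gaa. A match describes letters in these windows and does not show a bound site.

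Lung epithelial markers were near 0 in all 6 libraries, against the tissue label, so each group is named here by its age label only. Whole reads recovered from the values summed to 16649061 to 17456715 per library. Of 12 lung epithelial markers, 10 stayed below 1 FPKM (fragments scaled to gene length and library total) in every library, and Sftpd was at 0 throughout. The highest was Hopx, at 9.998, 10.37 and 10.09 FPKM in the libraries labelled young and 6.48, 5.76 and 5.68 FPKM in those labelled aged. By contrast, 7 of 10 mesenchymal markers stood at 10 FPKM or more everywhere, with Fn1, fibronectin, at 522 to 993 FPKM. The other 3, Thy1, Dcn and Lum, stayed below 1 FPKM in every library. Of the 7 mesenchymal markers tested, 2 were higher and 4 lower in the libraries labelled aged. All 8 endothelial markers were below 1 FPKM, with sums of 0.460 to 0.815 FPKM in the young and 1.002 to 1.36 FPKM in the aged group. Kidney markers summed to 147 FPKM in young library 1 and 30.2 FPKM in young library 3, against 1.64 to 3.53 FPKM in the other 4. The kidney androgen-regulated gene Kap alone stood at 116 and 21.9 FPKM in those libraries and at 0 in the others. The part of these transcripts in the results was not tested beyond leaving out those 2 libraries, which leaves 1 library labelled young whose spread is taken from the aged group.

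Most of the lysosomal genes were higher in the libraries labelled aged. The peptidase genes Ctsk and Ctsd and the membrane protein genes Gpnmb and Lamp1 each more than doubled in FPKM. Only Naglu, Lipa and Tfeb were lower at the threshold. By limma on log2(FPKM + 1), with Benjamini-Hochberg adjustment over 15197 tested genes at 0.05, 29 of the 44 tested lysosomal genes were higher (65.9%, where 27.7% of all tested genes were), 3 were lower (6.82%, where 32.3% of all tested genes were) and 12 did not pass. Of the 44 tested lysosomal genes, 18 were higher with a log2 change of at least 0.5, as were 11.6% of all tested genes. Without both libraries with kidney transcripts, 26 were higher and 3 lower, where 19.3% of all tested genes were higher and 21.7% lower. The median log2 fold change was 0.35 over the 44 genes and -0.03 over all tested genes. Without any overlap between groups, 30 of the 44 were higher and 4 lower, beside 31.3% and 35.6% of all tested genes. A difference in bulk RNA does not separate more cells of a type from more RNA per cell.

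**Figure D1:**
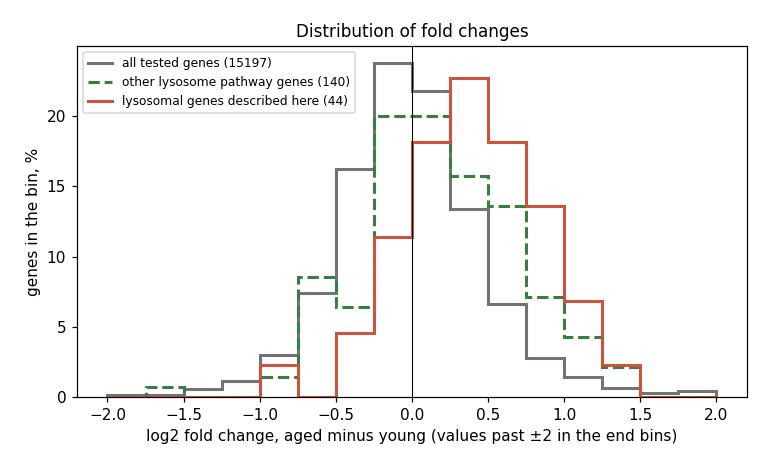
Share of genes (y axis, %) in bins of log2 fold change, aged minus young (x axis), for all 15197 tested genes, 140 other lysosome pathway genes and the 44 lysosomal genes described here. The line of the 44 genes lies to the right of the others, with medians of 0.35, 0.13 for the 140 pathway genes and -0.03 for all tested genes.

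The 46 genes are mostly abundant. The median of the 44 tested genes lay at the 87.2nd percentile of mean FPKM among tested genes, and 29 of the 46 reached at least 10 FPKM in all 6 libraries. Their FPKM summed to 2471, 2549.7 and 2605 in the young group and 3691, 3648 and 3732 in the aged group. This was 0.821% to 0.842% of all FPKM in the first group and 1.21% to 1.26% in the second, with no overlap. The 2 genes below the filter for testing were Ctss and Ctsc, described with the peptidases.

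**Figure D2:**
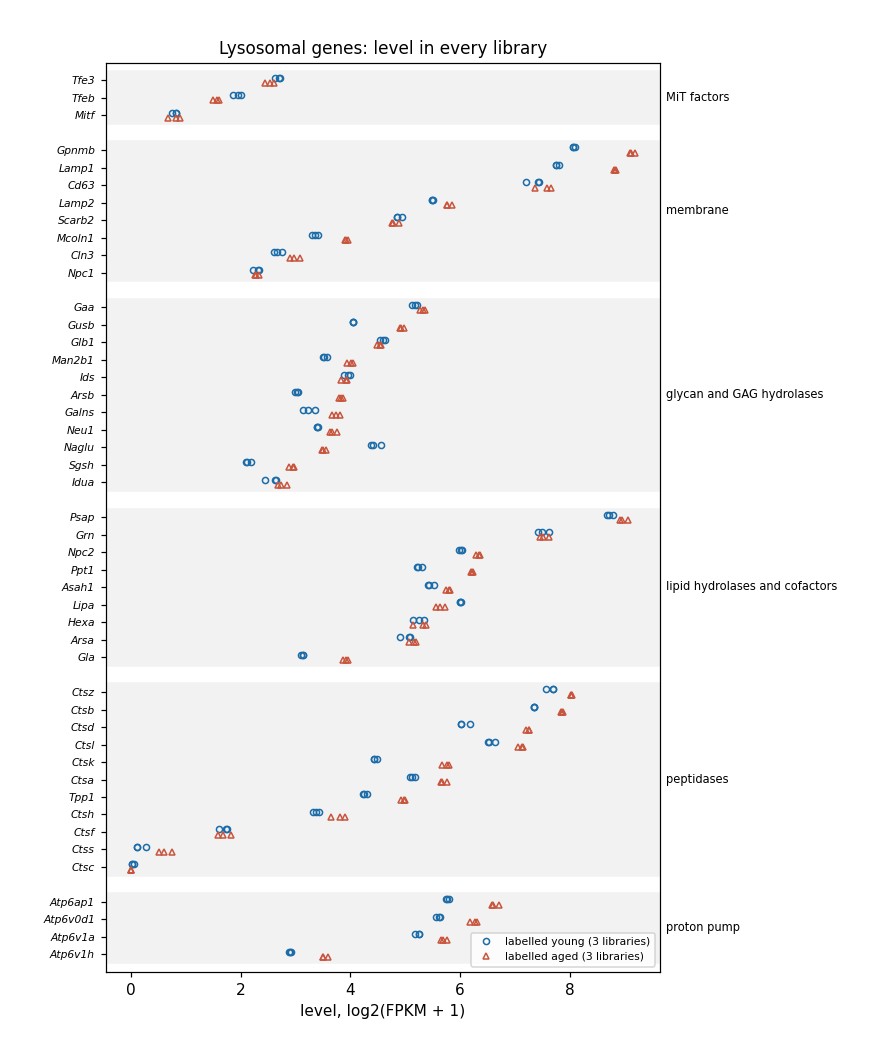
Level of each of the 46 genes, as log2(FPKM + 1) on the x axis, in the 3 libraries labelled young (circles) and the 3 labelled aged (triangles), grouped by role. Replicates lie close together for most genes, and the triangles lie to the right of the circles for most, with Naglu, Lipa and Tfeb the other way.

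The 3 MiT factors of the list were themselves low and none of them rose. Tfec, a further gene of the family outside the list, stayed at or below 0.0312 FPKM and was not tested. Tfeb, the factor most closely tied to lysosome biogenesis (chromosome 17, 47737030 to 47792419, plus strand, mm10), stood at 2.89, 3.04 and 2.63 FPKM in the libraries labelled young and at 1.82, 2.06 and 1.98 FPKM in those labelled aged. The groups did not overlap, and the fall was 1.46-fold (log2 change -0.38 ± 0.07 SE by limma, adjusted p = 0.00285). Tfe3, its close relative, stood at 5.47, 5.17 and 5.61 FPKM against 4.47, 5.13 and 4.84 FPKM. Its groups did not overlap either, but the difference did not pass the threshold (log2 change -0.14 ± 0.06 SE by limma, adjusted p = 0.0735). Mitf, known from melanocytes and osteoclasts, stood at 0.759, 0.772 and 0.673 FPKM against 0.770, 0.600 and 0.873 FPKM, with the groups overlapping (log2 change 0.01 ± 0.09 SE by limma, adjusted p = 0.949). At these levels the recovered reads over 3 libraries were 838 and 568 for Tfeb, 2600 and 2288 for Tfe3 and 236 and 238 for Mitf, young and aged in turn. Transcript levels do not report where in the cell these factors are.

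Of the 8 membrane proteins, 5 rose, none fell and 3 did not pass. Lamp1, a heavily glycosylated protein of the limiting membrane (chromosome 8, 13159161 to 13175338, plus strand), stood at 214, 214 and 222 FPKM in the libraries labelled young and 458, 445 and 455 FPKM in those labelled aged. The groups lay far apart, and the rise was 2.09-fold (log2 change 1.06 ± 0.03 SE by limma, adjusted p = 2.97e-06). Its relative Lamp2, which also serves chaperone-mediated autophagy, moved less, from 44.7, 43.8 and 44.2 FPKM to 53.3, 53.5 and 56.6 FPKM (1.23-fold, limma adjusted p = 0.000360). Gpnmb, a glycoprotein of lysosomes and melanosomes and a known MITF target (chromosome 6, 49036546 to 49070929, plus strand), stood at 264, 272 and 267 FPKM against 548, 557 and 582 FPKM. It rose 2.10-fold (log2 change 1.07 ± 0.04 SE by limma, adjusted p = 4.50e-06), and no CACGTG was found in its window. Mcoln1, the calcium release channel of the lysosome, stood at 8.89, 9.70 and 9.225 FPKM against 14.01, 14.14 and 14.47 FPKM and rose 1.53-fold (limma adjusted p = 5.22e-05).

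Cln3, the membrane protein lost in juvenile Batten disease, rose 1.28-fold. Its mean was 5.42 ± 0.318 FPKM in the young and 6.96 ± 0.510 FPKM in the aged group (limma adjusted p = 0.00540; ± is the SD over n = 3 libraries, also for the means that follow). Without both libraries with kidney transcripts its adjusted p was 0.115. The 3 membrane proteins that did not pass were Cd63, a tetraspanin of late endosomes, Scarb2, an integral protein of the lysosomal membrane, and Npc1, the cholesterol exporter. Cd63 stood at 164 ± 14.4 and 185 ± 19.2 FPKM, Scarb2 at 28.4 ± 1.14 and 27.1 ± 1.40 FPKM and Npc1 at 3.92 ± 0.201 and 3.91 ± 0.151 FPKM, young and aged in turn. In all 3 the groups overlapped, and Cd63 passed under 3 of 17 alternative settings.

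**Figure D3:**
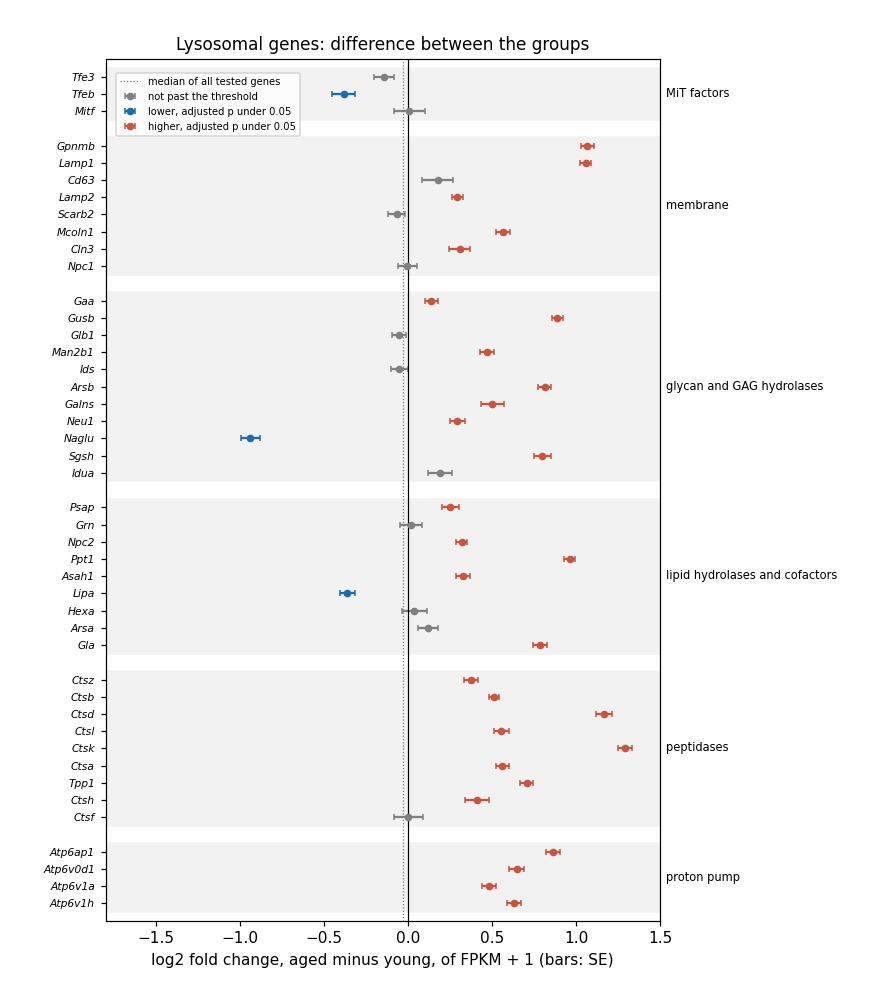
Log2 fold change, aged minus young, on the log2(FPKM + 1) scale (x axis) with its SE, for the 44 tested genes by role; colour marks the call at an adjusted p of 0.05 and the dotted line the median of all tested genes. Peptidases and proton pump subunits lie to the right except for Ctsf, and Naglu, Lipa and Tfeb lie to the left.

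Of the 11 cathepsins and other peptidases, 8 rose, 1 did not pass and 2 were not tested. Ctsk, the collagen-degrading cysteine protease best known from osteoclasts (chromosome 3, 95499256 to 95509362, plus strand), had the largest change of the 44 tested genes. It stood at 21.4, 20.7 and 20.6 FPKM in the libraries labelled young and 50.2, 54.5 and 53.3 FPKM in those labelled aged, 2.52-fold higher (log2 change 1.29 ± 0.04 SE by limma, adjusted p = 2.78e-06). Ctsd, the main aspartic protease of lysosomes (chromosome 7, 142375911 to 142388038, minus strand), stood at 63.9, 64.1 and 71.2 FPKM against 152, 146 and 153 FPKM, 2.26-fold higher (log2 change 1.17 ± 0.05 SE by limma, adjusted p = 7.44e-06). Neither gene's groups came near to overlapping. An annotated model on the strand of Ctsd, Gm49369, shares 808 exon bases with it, so reads of the 2 may not be separable.

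Other abundant peptidases moved less than Ctsd. Ctsb, a cysteine protease with both endopeptidase and exopeptidase activity, rose 1.43-fold, from 162 ± 0.596 to 232 ± 3.18 FPKM, Ctsl, a cysteine endopeptidase, 1.48-fold to 138 ± 3.97 FPKM and Ctsz, a carboxypeptidase, 1.30-fold to 260.4 ± 1.58 FPKM. Ctsa, the serine carboxypeptidase that shields Glb1 and Neu1 in a complex, stood at 34.1, 35.5 and 33.2 FPKM against 53.2, 49.6 and 50.3 FPKM, a rise of 1.49-fold (limma adjusted p = 5.02e-05). Tpp1, the tripeptidyl peptidase lost in late infantile Batten disease, rose 1.67-fold to 30.3 ± 0.930 FPKM, and Ctsh, an aminopeptidase, rose 1.37-fold to 12.9 ± 1.25 FPKM. Ctsf, another cysteine protease, did not pass, at 2.25 ± 0.164 and 2.26 ± 0.285 FPKM. Exons of Ctsl share 1742 bases with the opposite-strand model Gm47123. They also share 395 bases with Gm49230 on the strand of Ctsl, so reads of Ctsl and Gm49230 may not be separable. Exons of Ctsb share 774 bases with Fdft1.

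Ctss and Ctsc, the cathepsins typical of antigen-presenting and other leukocytes, were barely detected. Ctss had 9 recovered reads over the libraries labelled young and 38 over those labelled aged, a ratio per library total of 4.36 with an exact 95% interval of 2.07 to 10.3 that covers counting error only. Its values were 0.0855, 0.212 and 0.0853 FPKM against 0.685, 0.434 and 0.514 FPKM. The libraries labelled aged had reads on more genes in general, 26703 to 26925 against 24074 to 24363. Other genes near the floor were mixed. Among endothelial markers, Tek had 86 reads there against 18 in the libraries labelled young. Vwf had 50 against 46, Emcn 7 against 6 and Cldn5 2 against 3. The part of the wider detection in the Ctss ratio was not tested. Ctsc had 7 reads over the libraries labelled young and 0 over those labelled aged.

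The 4 proton pump subunits of the list all rose. Atp6ap1, an accessory subunit that guides assembly of the pump, stood at 54.4, 53.3 and 52.9 FPKM in the libraries labelled young and 104, 96.1 and 94.9 FPKM in those labelled aged, 1.84-fold higher (log2 change 0.86 ± 0.04 SE by limma, adjusted p = 1.07e-05). Atp6v0d1, of the membrane sector, stood at 46.4, 48.2 and 48.5 FPKM against 78.8, 71.3 and 76.1 FPKM (1.58-fold, limma adjusted p = 3.76e-05). Atp6v1a, the catalytic subunit that hydrolyses ATP, stood at 37.1, 35.1 and 37.1 FPKM against 50.9, 49.7 and 53.5 FPKM (1.41-fold, limma adjusted p = 8.98e-05). Atp6v1h, a regulatory subunit, rose 1.63-fold to 10.6 ± 0.428 FPKM. The groups did not overlap for any of the 4.

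Among the 11 hydrolases of glycans and glycosaminoglycans, 7 rose, Naglu fell and 3 did not pass. Gusb, beta-glucuronidase, was steady at 15.6, 15.6 and 15.7 FPKM in the libraries labelled young and stood at 30.7, 29.5 and 29.0 FPKM in those labelled aged (1.91-fold higher, log2 change 0.89 ± 0.03 SE by limma, adjusted p = 5.22e-06). Arsb, the sulfatase of dermatan sulfate, stood at 7.15, 6.93 and 7.26 FPKM against 12.9, 13.6 and 13.3 FPKM (1.86-fold higher, limma adjusted p = 1.07e-05). Unstranded reads of Arsb could include those of the antisense model Gm26527, with which it shares 1948 exon bases. Rises also passed for Galns, the sulfatase of keratan sulfate (1.46-fold), Man2b1, the alpha-mannosidase of glycoprotein breakdown (1.42-fold), Neu1, a sialidase (1.25-fold), and Gaa, the alpha-glucosidase that digests glycogen (1.10-fold). The rise of Gaa did not pass without both libraries with kidney transcripts (limma adjusted p = 0.121), nor without young library 1 alone (adjusted p = 0.0520) or aged library 1 alone (adjusted p = 0.0543). Glb1, the beta-galactosidase assayed as a senescence marker, did not pass, at 22.2, 23.7 and 23.3 FPKM against 22.7, 22.4 and 21.5 FPKM (log2 change -0.05 ± 0.04 SE by limma, adjusted p = 0.283).

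The enzymes that degrade heparan sulfate in sequence moved in different directions. Sgsh, the sulfamidase, stood at 3.30, 3.31 and 3.54 FPKM in the libraries labelled young and 6.72, 6.35 and 6.83 FPKM in those labelled aged, 1.96-fold higher (log2 change 0.80 ± 0.05 SE by limma, adjusted p = 2.91e-05). Naglu, the N-acetylglucosaminidase that acts after Sgsh and the acetyltransferase Hgsnat (chromosome 11, 101070012 to 101077672, plus strand), stood at 19.8, 20.3 and 22.6 FPKM against 10.4, 10.2 and 10.7 FPKM, 2.01-fold lower (log2 change -0.94 ± 0.06 SE by limma, adjusted p = 2.21e-05). Neither gene had any overlap between groups. Ids, the iduronate sulfatase, and Idua, the iduronidase, did not pass, at 14.4 ± 0.652 against 13.9 ± 0.590 FPKM and 4.95 ± 0.447 against 5.787 ± 0.3997 FPKM. Idua had no overlap between groups (limma adjusted p = 0.0602) and passed under 5 of 17 alternative settings.

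A pair of other heparan sulfate enzymes were looked up after these values were seen. Hgsnat fell 1.62-fold, from 15.03 ± 0.860 to 9.29 ± 0.605 FPKM, and the sulfatase Arsg fell 1.998-fold, from 3.24 ± 0.271 to 1.62 ± 0.303 FPKM. Exons of Sgsh share 955 bases with Card14 on the other strand, and the sources used here do not say whether the counting used strand.

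**Figure D4:**
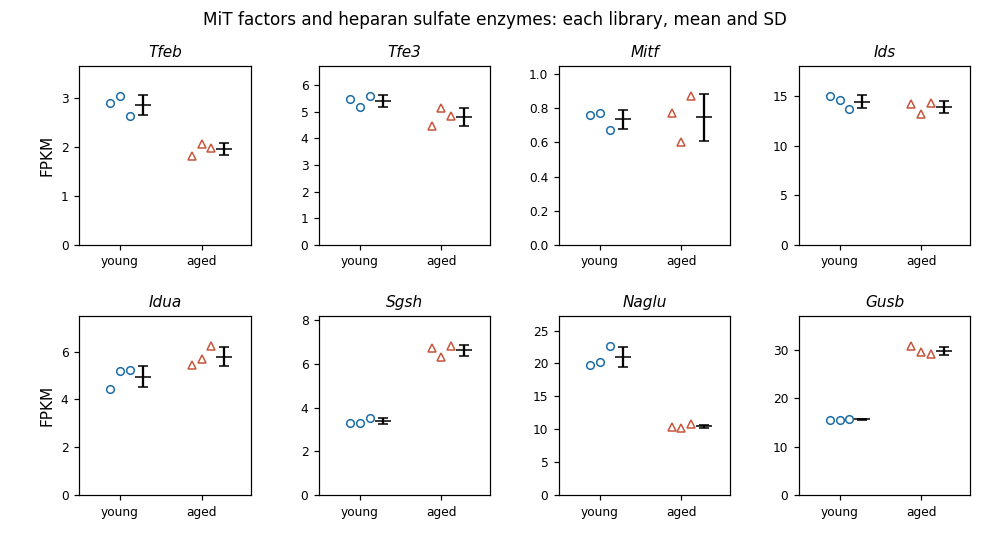
FPKM (y axis from 0) of the 3 listed MiT factors and of 5 heparan sulfate enzymes in each library. Mean and SD (n = 3) stand beside the points. Sgsh and Gusb are higher and Naglu and Tfeb lower in the libraries labelled aged without overlap, and Mitf and Ids overlap.

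Among the 9 hydrolases and cofactors of lipid breakdown, 5 rose, Lipa fell and 3 did not pass. Ppt1, the thioesterase that removes palmitate from proteins, stood at 38.7, 36.3 and 36.5 FPKM in the libraries labelled young and 73.1, 72.8 and 74.1 FPKM in those labelled aged, 1.97-fold higher (log2 change 0.96 ± 0.03 SE by limma, adjusted p = 4.57e-06). Gla, the alpha-galactosidase lost in Fabry disease, stood at 7.77, 7.55 and 7.86 FPKM against 13.5, 14.1 and 14.6 FPKM, 1.82-fold higher (log2 change 0.79 ± 0.04 SE by limma, adjusted p = 1.54e-05). Both pairs of groups were far apart. Asah1, acid ceramidase, rose 1.26-fold to 54.3 ± 1.44 FPKM and Npc2, which hands cholesterol to Npc1, rose 1.25-fold to 79.6 ± 1.65 FPKM.

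Psap, the precursor of the saposins that present sphingolipids to their hydrolases, was among the 3 most abundant genes of the list, at 409.5, 419.5 and 439.6 FPKM against 495, 483 and 535 FPKM. It rose 1.19-fold (log2 change 0.25 ± 0.05 SE by limma, adjusted p = 0.00525), its log2 fold change was 0.51 after quantile normalization, and without both libraries with kidney transcripts its adjusted p was 0.0595. Lipa, the acid lipase that frees cholesterol and fatty acids from lipoproteins, went down from 62.7, 62.8 and 64.1 FPKM to 51.9, 48.6 and 46.5 FPKM, 1.29-fold lower (log2 change -0.36 ± 0.04 SE by limma, adjusted p = 0.000463). Hexa, the alpha subunit of hexosaminidase, did not pass (37.0 ± 2.60 against 38.0 ± 3.32 FPKM), nor did Arsa, which removes sulfate from sulfatide (31.6 ± 2.35 against 34.4 ± 1.46 FPKM; it passed under 3 of 17 alternative settings), or Grn, the progranulin precursor (182 ± 13.9 against 184 ± 10.3 FPKM).

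The E-box windows can be set beside these changes as a description. Of the 15 genes with CACGTG, 11 rose, 1 fell (Naglu) and 3 did not pass (Arsa, Ctsf and Glb1), with a median log2 fold change of 0.56. Of the 23 tested genes whose window lacked it, 13 rose, 2 fell and 8 did not pass, with a median of 0.29. Among all tested genes with a window, 34.9% of the 1159 with CACGTG rose and 31.2% fell, against 29.0% and 36.3% of the 8669 without it. For the extended form TCACGTG, 37.8% of 694 tested genes rose and 30.0% fell. Of the 10 genes with the largest rises, Ctsk, Gpnmb, Ppt1, Gusb, Atp6ap1 and Arsb had a window without CACGTG. Only Ppt1 of these genes held CATGTG, another E-box variant that does not overlap CACGTG boxes. The others, Ctsk, Gpnmb, Gusb, Atp6ap1 and Arsb, held neither motif. This variant was chosen after the values were seen. It was found in 9 of the 40 genes (22.5%) and in 15.9% of all genes with a window. Wider windows and distal elements were not used here.

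**Figure D5:**
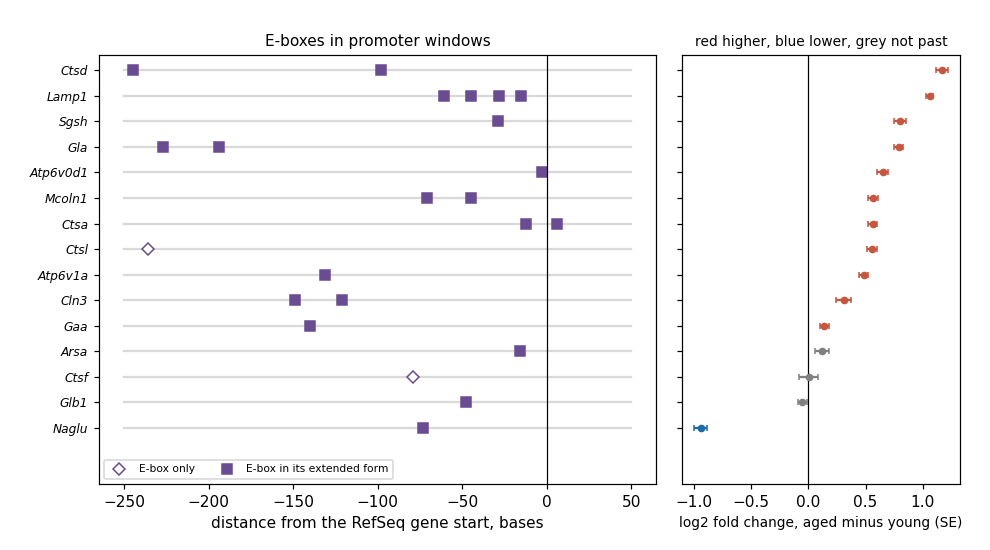
Left, distance of each E-box from the RefSeq gene start (x axis, bases) in the 15 genes that hold one, with filled squares for the extended form; right, log2 fold change of the same genes, aged minus young, with SE. Genes are ordered by fold change, from Ctsd (1.17) at the top to Naglu (-0.94) at the bottom, and Lamp1 holds 4 boxes.

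Other lysosome genes were taken from 7 lists of 166 genes in all, of which 140 were tested. Of these, 69 rose (49.3%, beside 27.7% of all tested genes), 35 fell (beside 32.3% of all tested genes) and 36 did not pass, with a median log2 fold change of 0.13. Without both libraries with kidney transcripts, 59 rose and 20 fell, beside 19.3% and 21.7% of all tested genes. The counts of single lists below are read against the same shares, and several lie near them. Of the 15 remaining proton pump subunits that were tested, 12 were higher and 0 lower. Atp6v0a2, the a2 subunit of the membrane sector, rose most of them, from 5.51 ± 0.459 to 12.8 ± 0.416 FPKM (2.32-fold, limma adjusted p = 1.82e-05). Other hydrolases were evenly split, with 11 of 29 higher and 11 lower. Dpp7, a dipeptidyl peptidase with the largest rise of that list on the log2(FPKM + 1) scale, rose 2.78-fold to 14.4 ± 0.873 FPKM. Other membrane proteins gave 11 of 29 higher (37.9%) and 8 lower (27.6%), near the shares over all tested genes. Among them Mfsd1, a transporter, rose 2.58-fold to 66.0 ± 1.95 FPKM, and Mfsd12, a cysteine importer of lysosomes and melanosomes, fell 3.68-fold to 4.79 ± 0.485 FPKM.

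Of 9 inhibitors of cysteine cathepsins, 5 were tested, and of these 4 were higher and 0 lower. Ctla2a, among those higher, met the filter only in the libraries labelled aged and lay near the floor. It had 15 recovered reads over the libraries labelled young and 75 over those labelled aged. Cst6, cystatin M, rose 3.06-fold to 8.39 ± 1.59 FPKM, Cstb, the cytosolic stefin B, 2.09-fold to 345 ± 34.5 FPKM and Cst3, the secreted cystatin C, 1.15-fold to 276 ± 9.38 FPKM. Cstb and Cst3 were looked up after their values were seen. Genes that sort hydrolases to lysosomes had 8 of 19 higher and 4 lower, with Vps29, of the retromer, 1.86-fold higher and the adaptor Gga1 1.56-fold lower. Nutrient signalling at the lysosome had 10 of 19 higher and 5 lower. In that list the GTPase gene Rragc rose 1.88-fold to 61.4 ± 1.37 FPKM, and Lamtor2, of the Ragulator scaffold that anchors such GTPases, fell 1.76-fold to 39.2 ± 2.45 FPKM. Fusion and positioning genes had 13 of 24 higher and 7 lower, with Vps11, of the HOPS and CORVET tethers, 1.82-fold higher and Kxd1, of the BORC complex, 1.696-fold lower.

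Lysosomal genes are also markers of myeloid cells, osteoclasts and melanocytes, whose own markers were measured beside them. Cd68, Lamp3, Acp5 and Atp6v0d2 stand both in a marker list and in a pathway list. Of 15 myeloid markers, 12 stayed below 1 FPKM in every library, among them Ptprc (CD45) at no more than 0.0953 FPKM and Csf1r at no more than 0.143 FPKM. The list summed to 12.7 to 15.3 FPKM in the libraries labelled young and 44.2 to 44.9 FPKM in those labelled aged. Nearly all of this sum came from Lyz2, lysozyme, at 3.84, 4.51 and 3.96 FPKM against 17.9, 17.8 and 18.8 FPKM, from Cd68, itself a lysosomal membrane protein, at 7.39, 7.70 and 5.85 FPKM against 16.0, 16.7 and 15.5 FPKM, and from Mertk, an engulfment receptor, at 3.03, 2.59 and 2.61 FPKM against 8.57, 9.10 and 9.42 FPKM. All 3 rose at the threshold, and their part in the rise of the lysosomal genes was not tested. The 8 osteoclast markers summed to 0.887 to 1.07 FPKM against 1.73 to 1.96 FPKM, each below 1 FPKM everywhere, while Ctsk reached 54.5 FPKM. The 8 melanocyte markers summed to 0.253 to 0.434 FPKM against 0.585 to 0.906 FPKM, with Pmel the highest and Dct at 0 in all 6 libraries, while Gpnmb reached 582 FPKM.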

How the data were processed

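RNA sequencing values of 6 libraries were used. The authors deposited FPKM values per gene, with gene position and length. Per the labels' protocols and the submitters' processing notes, paired reads were aligned with HISAT2 2.0.5 to mm10; the sources used here do not name the counting program, annotation or use of strand. Values times gene length were whole multiples of 1 step per library (100% within 0.01), so reads could be recovered, and 3 reads on a 1-kilobase gene correspond to 0.173 to 0.177 FPKM. Chi-square per degree of freedom over genes with at least 50 reads was 2.25 to 4.93 between replicates, so no pair agreed within counting noise as a library deposited again would; each library was used as 1 sample.

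Genes at 0.5 FPKM or more in at least 3 libraries (15197) were tested on log2(FPKM + 1), a pseudocount of 1 that understates changes of low genes, with limma 3.58.1 in R 4.3.3: a linear model on group with a mean-variance trend, giving 2-sided p-values that were adjusted by Benjamini and Hochberg's method across every tested gene. Folds are ratios of mean FPKM. The scripts were tested on simulated reads. Other steps used Python 3.11.15, pandas 2.3.3 and matplotlib 3.10.9. Promoter sequences are RefSeq's, GRCm38.p6. Gene spans of 44 of the 46 genes equalled GENCODE vM21, and exons of 17 overlapped another gene's.

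The genes and lists were chosen with earlier results of these data known. Values in every library are given for the listed MiT factors, the 10 largest rises and all falls past the threshold. They are also given for the 3 most abundant genes and those with a printed sequence. From each pathway list, the largest rise and fall past the threshold on the log2(FPKM + 1) scale are named, if the groups did not overlap and the higher one averaged 1 FPKM or more; Cst3, Cstb, Hgsnat and Arsg were added after their values were seen. The largest fall among the other hydrolases is not reported here. A planned comparison of protein motifs was not made, and a planned count model was replaced by voom on recovered reads.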

Additional observations from a re-analysis of the deposited data

How the results depend on the processing

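Of 32 lysosomal genes called, 29 kept direction and call under all 17 alternatives: other pseudocounts, filters and scalings, no trend, replicate number as a block, each library left out, both libraries with kidney transcripts left out, and voom on recovered reads (chosen after the data were seen). The exceptions were Gaa, Cln3 and Psap, which lost the call in settings given beside them. A planned quasi-likelihood count test was not run, because the deposited unit is FPKM. Leaving out 1 library gave 28 to 30 higher and 3 lower genes and the 9 settings of pseudocount, filter, scaling, trend and voom gave 29 to 32 higher and 3 lower. With the replicate number as a block, 30 were higher and 3 lower. Deviations of same-numbered libraries had correlations of 0.006, -0.008 and 0.019, and those of different numbers -0.040 to 0.036. With 3 libraries per group, these values gave no sign of pairing by number and cannot exclude it. The median log2 fold change was 0.37 with a mean of at least 1 FPKM, 0.42 with median centring, 0.46 with quantile normalization, 0.38 after rescaling to TPM and 0.40 with voom. Other pathway genes called lower numbered 20 without both libraries with kidney transcripts, against 35, and 27 to 31 with 1 library left out. Depth limits Ctss and Ctsc, which fell below the FPKM filter and rest on few reads; fitted without the filter, Ctss was higher (limma adjusted p = 0.0115) and Ctsc did not pass (adjusted p = 0.25). With median centring, calls over all genes turned from 4212 higher and 4903 lower to 4988 and 4026, and those of the lysosomal genes were 31 and 3.

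Log2 changes of genes not past the threshold changed sign as follows. Npc1 gave 0.0625 with median centring, 0.0530 with quantile normalization, 0.0215 with TPM and 0.0292 with voom. Median centring gave 0.0125 for Glb1 and 0.0153 for Ids, and quantile normalization gave -0.0651 for Mitf. Without both libraries with kidney transcripts, Ctsf was at -0.0493 and Mitf at -0.0227. Leaving out 1 library gave -0.0296 to 0.0775 for Grn, -0.0155 to 0.1079 for Hexa, -0.0375 to 0.0183 for Npc1, -0.0639 to 0.0602 for Ctsf and -0.0436 to 0.0704 for Mitf. Median centring shifts every gene of a library by the same amount, and the median over all tested genes went from -0.0273 to 0.0386. The cause of the sign changes under the other settings was not tested.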
